A study of Mus musculus with 12 samples.

Results

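Microglia of mice labelled CPEB1 knockout were compared with microglia of wild-type mice 24 h after an injection of lipopolysaccharide (LPS), a component of the outer membrane of bacteria. The comparison uses 6 of the 12 libraries of the series, all 3 labelled WT-LPS and all 3 labelled CPEB1-KO-LPS, and every one of the 15295 genes that passed a filter on low counts among the 23845 in the tables. The libraries were chosen by their labels and not by any measured value. Every mouse was of the C57BL6/J strain and 3 to 4 months old, and both groups had received LPS, so that the genotype is the labelled difference between them. Each library came from 1 animal. Microglia were collected on a Percoll density gradient, and poly(A)-selected RNA was sequenced. The other 6 libraries, 3 of WT and 3 of CPEB1-KO mice without LPS, stand beside the comparison only where a difference after LPS is set against the same difference without LPS. The sources used here do not state the knockout allele, the part of the gene it removes, the cells in which it is lost, the sex of the animals or the dose of LPS.

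CPEB1 is an RNA-binding protein that recognises the cytoplasmic polyadenylation element (CPE), a short U-rich stretch near the end of the 3′ untranslated region (UTR) of its target mRNAs. Bound there, it can hold an mRNA silent with a short poly(A) tail or, after phosphorylation, promote lengthening of the tail and translation. It is best known from oocytes and from neurons, where it acts at synapses. LPS is sensed through TLR4, which switches on NF-kB target genes, cytokines, chemokines and, through interferon, the interferon-stimulated genes. Microglia are the main resident cells of the brain that carry this response. The libraries measure the amount of poly(A)-containing RNA of each gene and neither tail length nor translation.

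The element CPEB1 binds is present in several of the genes on which the results turn. Shown here are 30 bases of GENCODE M21 transcripts around the CPE nearest the 3′ end (TTTTAT or TTTTAAT, given as DNA and searched on the sense strand only, and neither of these strings contains the other), with the CPE in capitals, for a purine enzyme, an enzyme of retinoic acid synthesis, a phagocytic receptor, a transcription factor and 2 cytokines, so that members with higher and with lower values can be compared. In the mouse build GRCm38, which is mm10, the windows lie at chr14:50964713-50964742 on the plus strand (Pnp2), chr9:71296169-71296198 on the plus strand (Aldh1a2), chr2:128802855-128802884 on the plus strand (Mertk), chr4:55527143-55527172 on the minus strand (Klf4), chr5:30019909-30019938 on the plus strand (Il6) and chr2:129364628-129364657 on the minus strand (Il1b). All lie in the 3′ UTR, within the last 100 bases of the transcript.
Pnp2: ataagcacagacTTTTATtaaacatttgaa
Aldh1a2: agatttatgacTTTTAATttacttcaaaaa
Mertk: aggagattataTTTTAATaaaagatgactt
Klf4: tttaaataaacctataataTTTTATctgaa
Il6: tttgtgatgtatTTTTATaatgtttagact
Il1b: atggatgagactTTTTATgaatgaagcacc
Pnp2 had no count in CPEB1-KO-LPS. The log2 fold change of CPEB1-KO-LPS against WT-LPS was 1.14 for Aldh1a2, -1.28 for Mertk, -2.30 for Klf4, 1.40 for Il6 and 1.55 for Il1b. These genes were chosen to hold both directions, so their signs say nothing about genes with this element in general. All genes with and without it are compared further below.

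The 6 libraries held between 9.25 and 13.54 M expected counts (1 M is 1e+06), and their genes are given in TPM, transcripts per 1e+06 transcripts of a library. Beside microglial RNA the preparations contained RNA of neurons: Snap25, a synaptic protein of neurons, stood at 2439.8, 686 and 783 TPM in WT-LPS replicates 1, 2 and 3 and at 1579, 1809 and 853 TPM in CPEB1-KO-LPS replicates 1, 2 and 3. Csf1r, the receptor on which microglia depend, ran the other way, at 218, 1169.5 and 916 TPM in WT-LPS and 269.8, 167 and 655 TPM in CPEB1-KO-LPS in the same order. WT-LPS replicate 1 and CPEB1-KO-LPS replicates 1 and 2 were therefore low in microglial RNA, and WT-LPS replicates 2 and 3 and CPEB1-KO-LPS replicate 3 were high, which splits each genotype. On the main axis of variation among these 6 libraries (50.2% of the variance of 1000 genes) the same 3 libraries lay on one side and the other 3 on the opposite side. On the next axis (22.8%) all WT-LPS libraries had negative and all CPEB1-KO-LPS libraries positive values. CPEB1-KO-LPS replicate 3 also held more red blood cell RNA, with haemoglobin genes at 1.503% of its counts against 0.129% to 0.242% in the other 5. Ddx3y, a gene of the Y chromosome, was detected in all 6 libraries, at 42.1, 47.9 and 58.0 TPM in WT-LPS and 33.9, 39.7 and 40.0 TPM in CPEB1-KO-LPS. The defining markers of microglia, neurons, astrocytes and oligodendrocytes were detected in all 6 libraries, and in bulk RNA fewer cells of a type and less RNA per cell cannot be told apart.

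**Figure D1:**
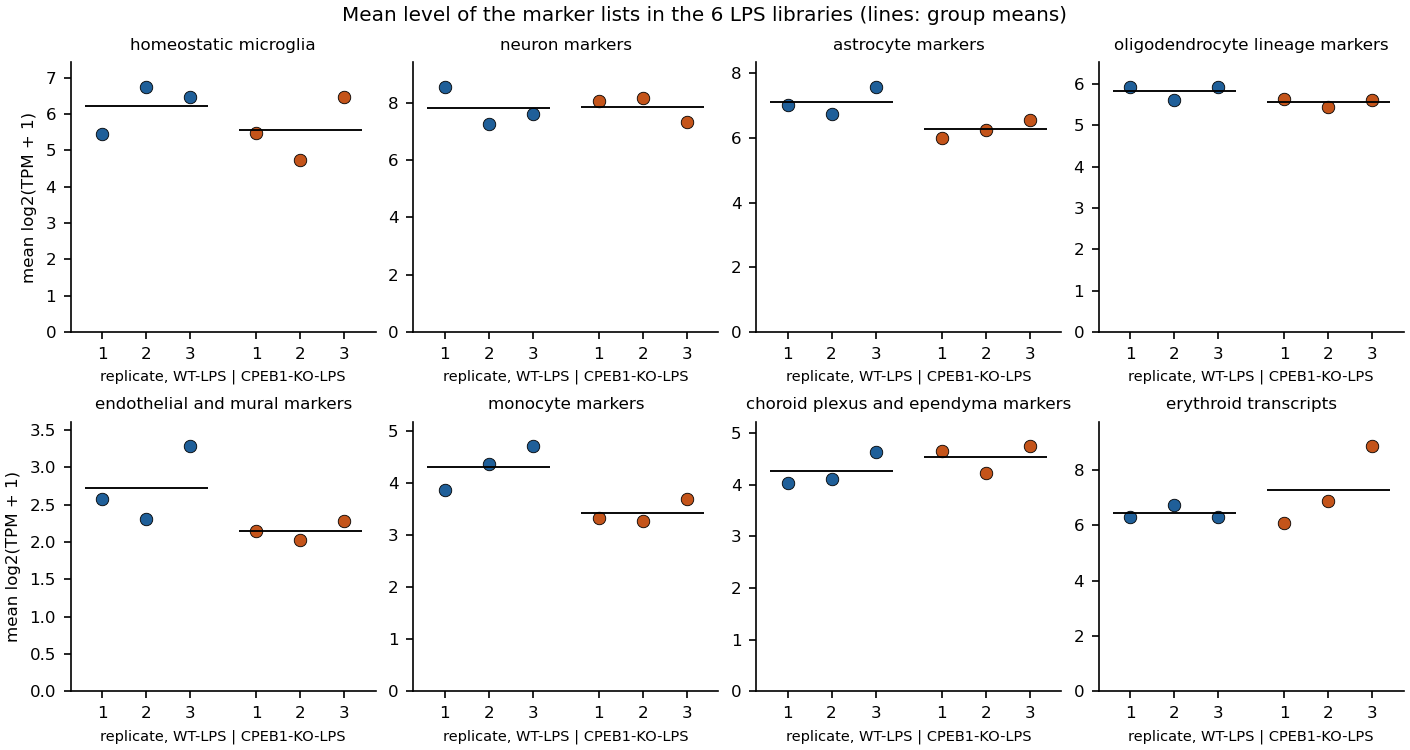
Mean log2(TPM + 1) of 8 marker lists in each of the 6 LPS libraries (points, WT-LPS in blue and CPEB1-KO-LPS in orange) with the group means as lines. Homeostatic microglia markers and neuron markers split both genotypes, while monocyte markers were at 3.87, 4.36 and 4.71 in WT-LPS and 3.34, 3.27 and 3.69 in CPEB1-KO-LPS, without overlap.

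Cpeb1 itself did not tell the labels apart. The gene (chr7:81347026-81458001, GRCm38) stood at 40.2, 24.1 and 45.1 TPM in WT-LPS and at 34.6, 40.6 and 24.0 TPM in CPEB1-KO-LPS, and the groups overlapped, with a log2 fold change of -0.07 ± 0.31 (SE; edgeR quasi-likelihood test, adjusted p = 0.94). Counts over the whole gene check nothing about an allele that leaves transcribed parts behind, so CPEB1-KO-LPS below means the libraries labelled so, and each direction rests on these labels. The other 3 family members bind related U-rich elements. Cpeb2 was at 28.8, 46.8 and 44.1 TPM in WT-LPS and 24.2, 28.2 and 23.8 TPM in CPEB1-KO-LPS, every CPEB1-KO-LPS value below every WT-LPS value, with a log2 fold change of -0.60 ± 0.22 that did not pass (adjusted p = 0.422). Cpeb3 (-0.43 ± 0.25) and Cpeb4 (-0.36 ± 0.19) differed by less, and neither passed.

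Of the 26 genes tested within 1 Mb of Cpeb1 on chromosome 7, none passed FDR 0.05 in edgeR, 1 was higher and 5 were lower in CPEB1-KO-LPS at an unadjusted p under 0.05 (against 5.71% higher and 5.09% lower of all genes). Their median log2 fold change was -0.10 against 0.06 for all genes tested. DESeq2 called 2 of them, Tm6sf1 and Homer2. Of these neighbours, 2 were higher and 7 lower without CPEB1-KO-LPS replicate 3, median -0.05, where all genes tested gave 1402 and 1667. Without WT-LPS replicate 1, 0 were higher and 8 lower, median -0.21, where all genes tested gave 1250 and 1668. In that setting Tm6sf1 passed FDR 0.05 (edgeR adjusted p = 0.0492). The lower ones were Homer2, a scaffold of glutamate receptors (-1.10 ± 0.28), Tm6sf1, a membrane protein (-1.33 ± 0.34), Iqgap1, a scaffold of the actin skeleton (-0.91 ± 0.37), Furin, a proprotein protease (-0.69 ± 0.32), and the zinc finger gene Zfp592 (-0.58 ± 0.22). The higher one was 2900076A07Rik (1.38 ± 0.50). Homer2 stood at 5.81, 4.94 and 7.12 TPM in WT-LPS and at 2.03, 3.47 and 2.38 TPM in CPEB1-KO-LPS, without overlap. Hddc3, described below, lies 1000310 bases from Cpeb1, just outside this window.

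Across all genes 1 of 15295 passed a false discovery rate (FDR) of 0.05, which is 0.00654%. This gene was Gm13304 (chr4:42114787-42115917, GRCm38), for which RefSeq lists the names Ccl21b and Ccl21c, copies of a chemokine that draws CCR7-bearing lymphocytes and dendritic cells. It stood at 53.0, 26.0 and 23.6 TPM in WT-LPS and at 0.32, 0.48 and 0.25 TPM in CPEB1-KO-LPS. Every CPEB1-KO-LPS library was near 0 and every WT-LPS library was far above, and the gene fell by 6.38 ± 0.57 on the log2 scale, 83.2-fold (edgeR adjusted p = 0.000582). Without LPS it was also low in CPEB1-KO, at 1.04, 0.40 and 1.36 TPM against 44.9, 23.0 and 63.1 TPM in WT (log2 fold change -5.80 ± 0.52, adjusted p = 0.000367). The difference between these 2 changes, -0.58 ± 0.80, did not pass (adjusted p = 0.755). Near-identical copies of this chemokine lie on chromosome 4, and the counts cannot tell which of them the reads came from.

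Below this gene the comparison gave differences that did not pass after adjustment over all genes. At an unadjusted p under 0.05, 874 genes (5.71%) were higher and 779 (5.09%) lower in CPEB1-KO-LPS, of which 624 differed at least 2-fold. With median-of-ratios (RLE) size factors in place of TMM the same split was 618 higher and 1023 lower, so the balance of directions depends on the scaling. In TPM, all 3 CPEB1-KO-LPS values lay above all 3 WT-LPS values for 570 genes (3.73%) and below them for 1338 genes (8.75%). In TMM-scaled CPM (counts per 1e+06 counts of a library) the same count was 1299 above and 875 below, so its balance turns over with the scale. Leaving out a library also moved the numbers at an unadjusted p under 0.05, to 1402 higher and 1667 lower without CPEB1-KO-LPS replicate 3 and to 1250 and 1668 without WT-LPS replicate 1. DESeq2 on the same genes called 90 genes, 30 higher and 60 lower. Leaving out WT-LPS replicate 1 gave 11 calls, all lower, and leaving out CPEB1-KO-LPS replicate 3 gave 6, 2 higher and 4 lower.

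**Figure D2:**
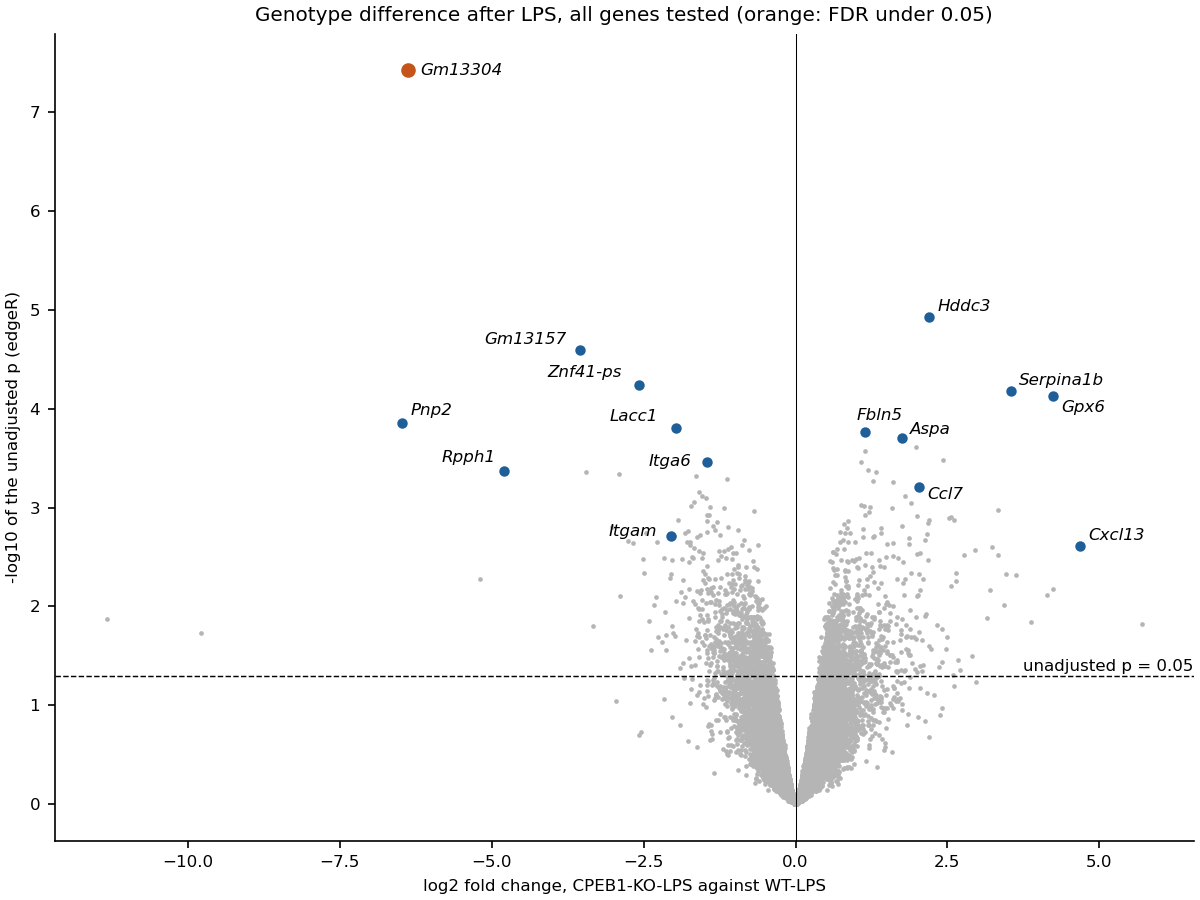
Log2 fold change of CPEB1-KO-LPS against WT-LPS (x axis) and −log10 of the unadjusted p of edgeR's quasi-likelihood test (y axis) for the 15295 genes tested, 1 point a gene, with named genes in blue and the 1 gene past FDR 0.05 in orange. Gm13304 stands apart at a log2 fold change of -6.38; the dashed line marks an unadjusted p of 0.05.

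Among genes with higher values in CPEB1-KO-LPS, those of smallest p with a mean of at least 5 TPM and groups that do not overlap were Hddc3, Fbln5, Aspa, Aldh1a2, Nme3, Zfp58, Nkx6-2, Gjb1, Ccl7 and Wfdc2. None of these passed FDR 0.05 in this fit, while DESeq2 called all of them, with adjusted p from 1.24e-06 for Hddc3 to 0.0421 for Wfdc2. Groups that do not overlap were a condition of the choice, so their separation adds no support of its own. Hddc3 (chr7:80343075-80346716), a nucleotide hydrolase also called MESH1, came nearest. It stood at 10.2, 9.36 and 7.72 TPM in WT-LPS and 63.9, 33.2 and 25.4 TPM in CPEB1-KO-LPS, with every CPEB1-KO-LPS value above every WT-LPS value. Its log2 fold change was 2.20 ± 0.33 (adjusted p = 0.0911), and it passed in DESeq2 (adjusted p = 1.24e-06) and, in edgeR, without the filter on low counts, with the neuron marker level as a covariate or without CPEB1-KO-LPS replicate 3. Aspa, aspartoacylase, which splits N-acetylaspartate in oligodendrocytes, was at 5.41, 2.95 and 2.90 TPM in WT-LPS and 17.5, 13.46 and 6.42 TPM in CPEB1-KO-LPS (1.75 ± 0.35, adjusted p = 0.301). Gjb1, the connexin of oligodendrocyte gap junctions, was at 8.10, 4.99 and 3.37 TPM in WT-LPS and 18.2, 22.4 and 8.85 TPM in CPEB1-KO-LPS (1.61 ± 0.36). Nkx6-2, a transcription factor of the same lineage, was at 16.2, 12.4 and 11.2 TPM in WT-LPS and 37.7, 32.3 and 26.4 TPM in CPEB1-KO-LPS (1.33 ± 0.29). All 3 showed CPEB1-KO-LPS above WT-LPS in every library, with the lowest CPEB1-KO-LPS value in replicate 3.

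The oligodendrocyte lineage list as a whole did not move with them. Of 13 members 1 was higher and 1 lower at an unadjusted p under 0.05, against 5.71% higher and 5.09% lower of all genes. They were, higher, the transcription factor Sox10 (0.82 ± 0.24) and, lower, the precursor receptor Gpr17 (-1.21 ± 0.42). The list median was -0.19. On this list, 1 was higher and 4 lower without CPEB1-KO-LPS replicate 3, median -0.50, where all genes gave 1402 and 1667. Without WT-LPS replicate 1, 1 was higher and 3 lower, median -0.21, where all genes gave 1250 and 1668. The remaining genes of this kind were Aldh1a2, which makes retinoic acid, Fbln5, a protein of elastic fibres, Nme3, a nucleoside diphosphate kinase, the zinc finger gene Zfp58, the secreted protein gene Wfdc2, and Ccl7, a chemokine for monocytes. Aldh1a2 stood at 9.28, 5.93 and 7.48 TPM in WT-LPS and 15.6, 20.0 and 12.3 TPM in CPEB1-KO-LPS (1.14 ± 0.23). Fbln5 was at 2.97, 3.09 and 3.70 TPM in WT-LPS and 6.46, 8.90 and 5.33 TPM in CPEB1-KO-LPS (1.14 ± 0.22). Ccl7 was even across WT-LPS, at 13.1, 12.1 and 15.8 TPM, and higher but uneven in CPEB1-KO-LPS, at 30.9, 30.3 and 86.2 TPM (2.02 ± 0.46, adjusted p = 0.361). The log2 fold changes of Nme3, Zfp58 and Wfdc2 were 1.08 ± 0.23, 1.19 ± 0.25 and 1.80 ± 0.42. A pair of genes of low abundance showed larger ratios: Serpina1b, a copy of alpha-1-antitrypsin, was at 0.11, 0.26 and 0.27 TPM in WT-LPS and 2.13, 1.95 and 3.30 TPM in CPEB1-KO-LPS (3.55 ± 0.62, adjusted p = 0.188). Gpx6, a glutathione peroxidase, had 3 counts over WT-LPS and 66 over CPEB1-KO-LPS, which is 20.9 times as many after scaling by depth (95% interval for counting error, 6.83 to 104). DESeq2 called Serpina1b (adjusted p = 0.0117) and Gpx6 (adjusted p = 0.0203). Serpina1b belongs to a family of near-identical copies, among which reads cannot be assigned with certainty.

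The lower genes chosen in the same way were Znf41-ps, Lacc1, Itga6, Rpph1, Nrip1, Itga9, Sox4, Ly6c1, Aoah and Cldn5, and none of them passed in this fit. DESeq2 called all of them, with adjusted p from 4.36e-05 for Znf41-ps to 0.0345 for Rpph1. Groups that do not overlap were again a condition of the choice. Lacc1, an enzyme of macrophage purine metabolism, stood at 67.8, 103 and 115 TPM in WT-LPS and at 15.6, 18.01 and 33.6 TPM in CPEB1-KO-LPS. The lowest WT-LPS value was in the library poorest in microglial RNA of that group, and the log2 fold change was -1.97 ± 0.38 (adjusted p = 0.295 in edgeR and 0.00244 in DESeq2). Itga6, a laminin receptor subunit, was at 6.30, 11.4 and 11.6 TPM in WT-LPS and 2.74, 3.44 and 3.94 TPM in CPEB1-KO-LPS (-1.45 ± 0.30). The integrin gene Itga9 was at 5.38, 12.2 and 11.2 TPM in WT-LPS and 2.30, 3.53 and 3.55 TPM in CPEB1-KO-LPS (-1.59 ± 0.36), and neither gene's groups overlapped. Aoah, acyloxyacyl hydrolase, the enzyme that strips acyl chains from LPS and so inactivates it, was at 38.7, 73.3 and 51.9 TPM in WT-LPS and 9.75, 24.8 and 8.29 TPM in CPEB1-KO-LPS (-1.72 ± 0.41, adjusted p = 0.361). Its highest CPEB1-KO-LPS value was in replicate 2, the library with the lowest Csf1r, and its lowest in replicate 3, with the highest Csf1r of that group. The part of microglial RNA content in the Lacc1 and Aoah values was not tested. Nrip1, a corepressor of nuclear receptors, and Sox4, a transcription factor, had log2 fold changes of -1.64 ± 0.36 and -1.54 ± 0.36, also without overlap between groups.

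On chromosome 4, Znf41-ps (chr4:145789515-145831978), a transcribed zinc finger pseudogene, was at 9.24, 13.1 and 11.1 TPM in WT-LPS and 0.88, 1.33 and 2.97 TPM in CPEB1-KO-LPS (-2.58 ± 0.45, adjusted p = 0.188). Gm13157 (chr4:147753974-147812229), named Zfp984 in RefSeq, a zinc finger gene of the same chromosome end, was at 6.40, 4.63 and 3.13 TPM in WT-LPS and 0.16, 0.49 and 0.50 TPM in CPEB1-KO-LPS (-3.54 ± 0.57, adjusted p = 0.131). DESeq2 called Znf41-ps (adjusted p = 4.36e-05) and Gm13157 (adjusted p = 6.96e-07). Both belong to a cluster of similar zinc finger genes, so the share of reads assigned to each copy is uncertain. On chromosome 14, the purine nucleoside phosphorylase gene Pnp2 (chr14:50956141-50964751) had 37 counts over WT-LPS and 0 over CPEB1-KO-LPS, at least 13.01-fold lower against a floor of 3 counts over the group. Its WT-LPS values were 2.81, 1.05 and 1.59 TPM. Rpph1 (chr14:50807447-50807771), the RNA of ribonuclease P, lies 148370 bases away and had 39 counts over WT-LPS and 1 over CPEB1-KO-LPS, which makes WT-LPS 41.1 times higher (95% interval for counting error, 6.96 to 1670). Its WT-LPS values were uneven, at 54.7, 9.52 and 15.5 TPM, against 1.78, 0 and 0 TPM in CPEB1-KO-LPS. Ang, the ribonuclease angiogenin of the same neighbourhood, was at 3.20, 16.8 and 8.48 TPM in WT-LPS and 0.72, 0.76 and 3.37 TPM in CPEB1-KO-LPS with overlapping groups (-2.51 ± 0.71). The neighbour Ccnb1ip1 was higher at an unadjusted p under 0.05 (2.36 ± 1.04). These bounds and intervals cover counting error only. DESeq2 called Pnp2, Rpph1 and Ang, with adjusted p = 0.00754, 0.0345 and 0.0345 in that order.

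**Figure D3:**
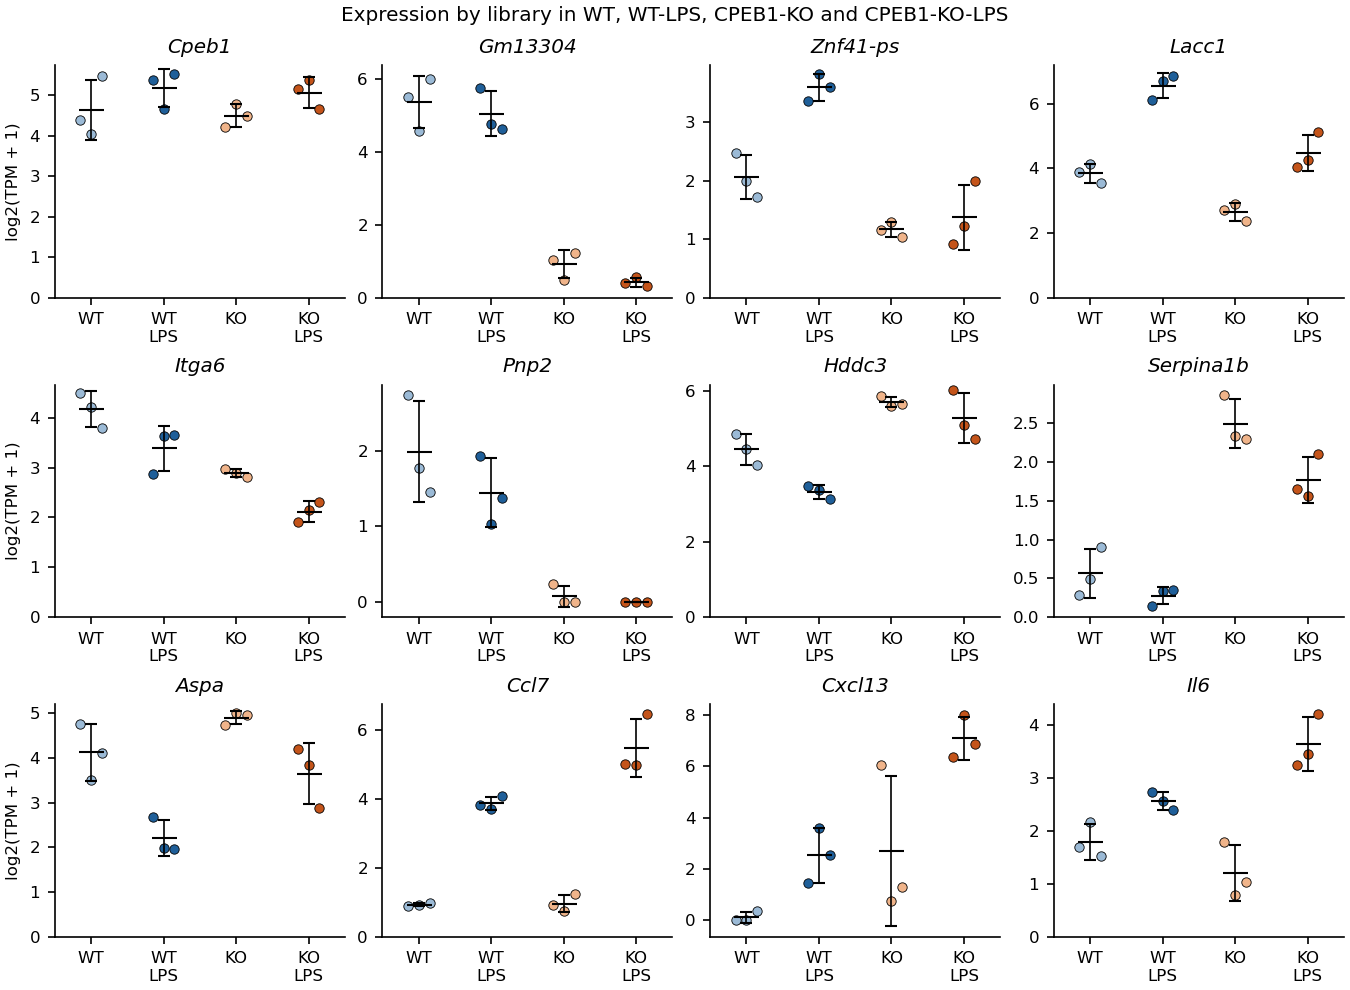
Log2(TPM + 1) of 12 genes in every library of the 4 groups (points, 3 libraries a group; bars, mean and SD). Cpeb1 overlaps in all groups, Gm13304 and Pnp2 are near 0 in both CPEB1-KO groups, Lacc1 and Itga6 are lower and Hddc3 and Serpina1b higher in CPEB1-KO with and without LPS, and the LPS-responsive Ccl7 and Il6 are higher in CPEB1-KO-LPS than in WT-LPS.

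The genotype comparison without LPS shares no library with the one after LPS, which allows the differences to be set side by side. Without LPS 5 genes passed FDR 0.05 (0.0327%), of which only Gm13304 also passed after LPS. Groups did not overlap for 26.7% of genes in the direction of higher TPM in CPEB1-KO and for 5.09% in the direction of lower TPM. This balance belongs to the TPM scale: in TMM-scaled CPM groups did not overlap for 1980 genes higher and 2119 lower in CPEB1-KO, and at an unadjusted p under 0.05 edgeR had 1153 higher and 1691 lower. Over all genes the log2 fold changes of both states had a Pearson correlation of 0.025, a description across genes, which are not independent replicates. Of the genes with an unadjusted p under 0.05 in both states, 45 were higher and 69 lower in both, and 165 differed in opposite directions. A gene whose groups did not overlap in either state and that was higher in both was found 83 times, and lower in both 43 times. In opposite directions, 387 genes were lower after LPS and higher without it, and 35 the reverse. In TMM-scaled CPM these numbers were 99 higher in both, 58 lower in both, 118 lower after LPS and higher without it, and 230 the reverse, so the imbalance depends on the scale.

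Several genes with the smallest p after LPS stood on the same side without LPS. Lacc1 was at 13.6, 16.4 and 10.7 TPM in WT and 5.58, 6.47 and 4.13 TPM in CPEB1-KO, a log2 fold change of -1.68 ± 0.40, close to that after LPS although its level in WT-LPS was several times that in WT. Itga6 (-1.76 ± 0.30), Hddc3 (0.92 ± 0.31), Serpina1b (2.93 ± 0.58), Gm13157 (-2.39 ± 0.53) and Ang (-2.83 ± 0.59) also kept their direction without LPS, with no overlap between the groups without LPS for any of these 5. C4b, complement component 4, was at 9.64, 7.31 and 11.5 TPM in WT and 48.1, 22.1 and 20.5 TPM in CPEB1-KO. After LPS it was at 23.1, 57.7 and 45.1 TPM in WT-LPS and 136, 106 and 66.6 TPM in CPEB1-KO-LPS, higher in CPEB1-KO in every library of both states (log2 fold changes 1.38 ± 0.40 without and 1.30 ± 0.40 after LPS). Its difference between the states was -0.08 ± 0.55 (adjusted p = 0.955). None of the genes in this paragraph passed FDR 0.05 in either state in the 12-library edgeR fit with TMM scaling and the filter on low counts. After LPS, Hddc3, Lacc1, Itga6, Serpina1b, Gm13157 and Ang each passed in at least 1 alternative.

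Other genes differed in opposite directions. Aldh1a2 was higher after LPS and lower without it, at 5.84, 4.41 and 5.51 TPM in WT and 4.38, 3.64 and 3.81 TPM in CPEB1-KO. The difference between its log2 fold changes was 1.87 ± 0.34, and did not pass (adjusted p = 0.187). Ly6c1, a surface protein of brain endothelium, was lower after LPS, at 53.3, 40.8 and 94.6 TPM in WT-LPS and 16.6, 15.1 and 23.1 TPM in CPEB1-KO-LPS, and overlapped without LPS. The difference of -2.32 ± 0.56 did not pass either (adjusted p = 0.195). The test of this difference passed for 1 gene of 15295 (0.00654%), the transcribed pseudogene Gm5512 on chromosome 19. Gm5512 was at 19.9, 12.6 and 50.1 TPM in WT and at 0.20, 0.34 and 0.11 TPM in WT-LPS, while it was low in all CPEB1-KO and CPEB1-KO-LPS libraries, at 1.93, 0.63 and 1.63 TPM in CPEB1-KO and 1.77, 0.64 and 1.13 TPM in CPEB1-KO-LPS. Nrip1 (-1.70 ± 0.51, adjusted p = 0.203) and Wfdc2 (2.08 ± 0.55, adjusted p = 0.195) also had differences between the states that did not pass.

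**Figure D4:**
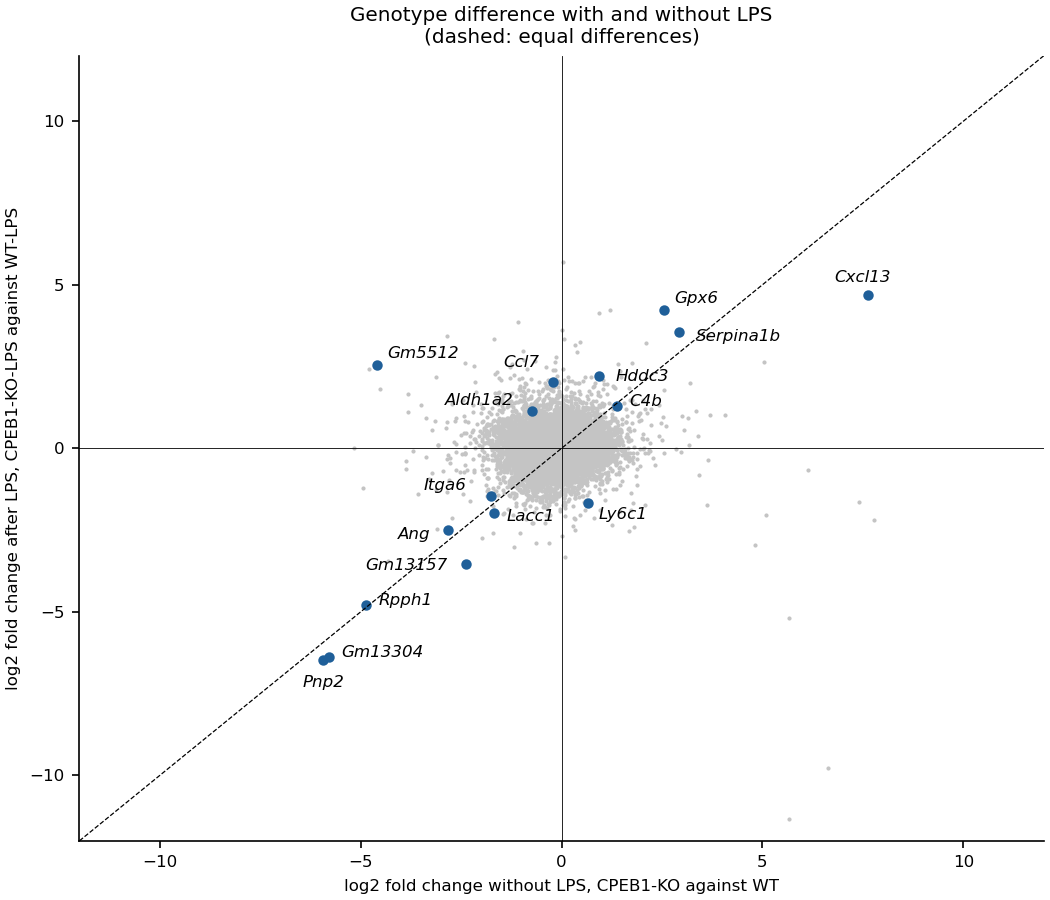
Log2 fold change of each gene tested without LPS (x axis, CPEB1-KO against WT) and after LPS (y axis, CPEB1-KO-LPS against WT-LPS), with named genes in blue and the line of equal differences dashed. Gm13304, Pnp2, Rpph1, Ang, Lacc1 and Itga6 lie near the line at the lower left and Serpina1b and Gpx6 at the upper right, while the bulk of genes forms a round cloud (r = 0.025). Fitted values of Pnp2, Rpph1 and Gpx6 rest on few counts.

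Among the 24 cytokine and chemokine genes tested, 5 were higher and 1 lower in CPEB1-KO-LPS at an unadjusted p under 0.05, none past FDR 0.05 in edgeR, against 5.71% and 5.09% of all genes. The list median was 0.15, and DESeq2 called 1, Ccl7. The 5 were Ccl7, Cxcl13, Il6, Cxcl1 and Il1b. Il6, a cytokine of the acute phase, was at 5.63, 4.94 and 4.29 TPM in WT-LPS and 8.45, 10.01 and 17.6 TPM in CPEB1-KO-LPS, without overlap (1.40 ± 0.49, adjusted p = 0.422). Cxcl1, which draws neutrophils, was at 31.1, 18.03 and 49.7 TPM in WT-LPS and 53.5, 71.8 and 64.3 TPM in CPEB1-KO-LPS, again without overlap (1.06 ± 0.37). Il1b, the inflammasome cytokine, was highest in 1 library, at 54.8, 48.5 and 111 TPM in WT-LPS and 71.4, 74.0 and 389.6 TPM in CPEB1-KO-LPS (1.55 ± 0.64). CPEB1-KO-LPS replicate 3 was also the library of its group in which Tnf, an early cytokine of macrophages, was high as well, at 177, 256 and 528 TPM in WT-LPS and 99.4, 84.5 and 518 TPM in CPEB1-KO-LPS. Tnf (-0.22 ± 0.70) and the chemokines Ccl2 (0.59 ± 0.40) and Cxcl10 (0.86 ± 0.51) overlapped between groups.

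Cxcl13, a chemokine for B cells, was at 1.77, 11.2 and 4.79 TPM in WT-LPS and 81.1, 254 and 116 TPM in CPEB1-KO-LPS (4.69 ± 1.26, adjusted p = 0.361). The 3 CPEB1-KO-LPS libraries lay far above the WT-LPS libraries, and without LPS it stood at 0, 0 and 0.29 TPM in WT and 64.4, 0.67 and 1.44 TPM in CPEB1-KO, high in 1 library. The single lower member was Cxcl2, a neutrophil chemokine, at 152, 337 and 455 TPM in WT-LPS and 132, 126 and 176 TPM in CPEB1-KO-LPS, where the groups overlapped (-1.01 ± 0.34). Cxcl3, a close relative that is not on the list and was named after its values were seen, was at 4.21, 2.60 and 4.28 TPM in WT-LPS and 14.8, 8.72 and 36.4 TPM in CPEB1-KO-LPS (2.61 ± 0.62). Without CPEB1-KO-LPS replicate 3 the list count was 3 higher and 7 lower, with a median of -0.53, so the balance of the list turns on that library. Without WT-LPS replicate 1 it was 3 higher and 1 lower, with a median of -0.06. All genes gave 1402 higher and 1667 lower without CPEB1-KO-LPS replicate 3, and 1250 and 1668 without WT-LPS replicate 1.

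For the remaining lists of the LPS response, members were again counted at an unadjusted p under 0.05, against 5.71% higher and 5.09% lower of all genes. The counts for all genes were 1402 higher and 1667 lower without CPEB1-KO-LPS replicate 3, and 1250 and 1668 without WT-LPS replicate 1. Of 19 genes of the NF-kB pathway and its feedback, 0 were higher and 4 lower, with a median of -0.45. The 4 were Rel, an NF-kB subunit (-1.51 ± 0.60), Nfkbiz, a nuclear cofactor (-1.43 ± 0.57), Irak3, an inhibitor of TLR signalling (-0.72 ± 0.29), and Zc3h12a, which degrades cytokine mRNAs (-1.24 ± 0.49). Nfkbiz stood at 90.1, 268 and 447 TPM in WT-LPS and 53.6, 56.5 and 159.6 TPM in CPEB1-KO-LPS, so that WT-LPS replicate 1 lay among the CPEB1-KO-LPS values. The same order was seen for Zc3h12a, at 20.8, 60.3 and 84.3 TPM in WT-LPS and 14.8, 16.7 and 32.7 TPM in CPEB1-KO-LPS. Without WT-LPS replicate 1 the number of lower members was 8, and without CPEB1-KO-LPS replicate 3 it was 13. Of 23 genes of innate activation and the acute phase, 0 were higher and 1 lower, Nos2, the inducible nitric oxide synthase, which stood at 1.03, 1.17 and 1.99 TPM in WT-LPS and 0.38, 0.57 and 0.84 TPM in CPEB1-KO-LPS (-1.12 ± 0.52), and the list median was -0.45. Of these genes, 1 was higher and 6 lower without CPEB1-KO-LPS replicate 3, median -0.43, and 0 higher and 7 lower without WT-LPS replicate 1, median -0.69. None of the 29 interferon-stimulated genes had an unadjusted p under 0.05, and their median was 0.15. Their log2 fold changes ran from -0.96 for Gbp2, a GTPase of cell-autonomous defence, to 0.79 for Oasl2, of the oligoadenylate synthase family. Of the interferon-stimulated genes, 0 were higher and 4 lower without CPEB1-KO-LPS replicate 3, median -0.42, and 0 higher and 1 lower without WT-LPS replicate 1, median -0.01. Isg15, the ubiquitin-like modifier, was at 116, 109 and 145 TPM in WT-LPS and 86.5, 148 and 292 TPM in CPEB1-KO-LPS. Of 18 antigen presentation genes 0 were higher and 1 was lower, the costimulatory ligand Cd80 (-1.34 ± 0.54), with a median of -0.08. Of the antigen presentation genes, 0 were higher and 4 lower without CPEB1-KO-LPS replicate 3, median -0.62, and 0 higher and 3 lower without WT-LPS replicate 1, median -0.38. No gene of these 4 lists passed FDR 0.05 in edgeR or in DESeq2.

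Immediate-early genes, which are switched on within minutes of a stimulus, gave the lowest median of all lists, -1.04 against 0.06 for all genes. Of 20 members 8 were lower and 1 higher in CPEB1-KO-LPS at an unadjusted p under 0.05, where 5.09% and 5.71% of all genes were. None passed FDR 0.05 in edgeR or in DESeq2. Egr1, a zinc finger transcription factor, was at 412, 845 and 1323 TPM in WT-LPS and 188, 156 and 446 TPM in CPEB1-KO-LPS (-1.55 ± 0.49). Fosb, a subunit of AP-1, was at 4.12, 88.4 and 273 TPM in WT-LPS and 10.7, 12.3 and 21.6 TPM in CPEB1-KO-LPS (-2.89 ± 0.93). Klf4, a Krüppel-like factor, was at 12.1, 92.8 and 138 TPM in WT-LPS and 13.3, 7.68 and 24.4 TPM in CPEB1-KO-LPS (-2.30 ± 0.74). For Fosb and Klf4 WT-LPS replicates 2 and 3 were high and WT-LPS replicate 1 lay with or below the CPEB1-KO-LPS libraries. Without WT-LPS replicate 1 the log2 fold change of Fosb was -3.52 and passed (edgeR adjusted p = 0.0492), and 13 members were lower. Without CPEB1-KO-LPS replicate 3, 15 members were lower. Among all genes 1668 were lower without WT-LPS replicate 1 and 1667 without CPEB1-KO-LPS replicate 3. The exception was Nr4a1, a nuclear receptor, at 26.6, 21.7 and 34.7 TPM in WT-LPS and 36.6, 60.7 and 32.2 TPM in CPEB1-KO-LPS (0.71 ± 0.29). The list's mean log2(TPM + 1) was 5.59, 6.82 and 7.55 in WT-LPS and 5.37, 5.40 and 6.33 in CPEB1-KO-LPS. With the neuron marker level as a covariate, 9 members were lower and 1 higher, median -0.90, where all genes gave 923 lower and 1357 higher. The part that microglial RNA content played was not tested beyond these values.

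The defining genes of resting microglia varied more within than between the genotypes. P2ry12, the ADP receptor, was at 16.3, 78.8 and 57.3 TPM in WT-LPS and 18.1, 9.79 and 71.7 TPM in CPEB1-KO-LPS. Tmem119, a microglial surface protein, was at 41.3, 129 and 70.0 TPM in WT-LPS and 66.1, 26.9 and 124 TPM in CPEB1-KO-LPS. Cx3cr1, the fractalkine receptor, was at 129.9, 205 and 123 TPM in WT-LPS and 127, 64.4 and 363 TPM in CPEB1-KO-LPS. The groups overlapped for all 3, and their log2 fold changes were -0.46 ± 0.68, -0.04 ± 0.56 and 0.42 ± 0.55. Of 22 homeostatic genes 3 were lower and 0 higher at an unadjusted p under 0.05, none past FDR 0.05, with a median of -0.40 (against 5.71% higher and 5.09% lower of all genes). Of the homeostatic genes, 0 were higher and 10 lower without CPEB1-KO-LPS replicate 3, median -1.30, where all genes gave 1402 and 1667. Without WT-LPS replicate 1, 0 were higher and 6 lower, median -0.86, where all genes gave 1250 and 1668. The 3 were Mertk, a receptor for apoptotic cells, Olfml3, a secreted protein (-1.30 ± 0.50), and Sparc, a matrix protein (-1.15 ± 0.49). Mertk was at 22.2, 51.6 and 49.4 TPM in WT-LPS and at 11.4, 13.9 and 22.01 TPM in CPEB1-KO-LPS (-1.28 ± 0.36). In CPEB1-KO-LPS replicate 3, where Csf1r was at 655 TPM, it reached the level of WT-LPS replicate 1, where Csf1r was at 218 TPM. The part of microglial RNA content in the Mertk values was not tested. Of 20 disease-associated microglia genes 2 were higher and 1 lower, with a median of -0.07. They were Clec7a, the beta-glucan receptor, at 0.59, 1.64 and 1.53 TPM in WT-LPS and 3.22, 2.36 and 7.32 TPM in CPEB1-KO-LPS (1.90 ± 0.56), Gpnmb, a lysosomal glycoprotein (0.79 ± 0.37), and, lower, the cathepsin gene Ctsl (-0.94 ± 0.32). Of the disease-associated genes, 1 was higher and 7 lower without CPEB1-KO-LPS replicate 3, median -0.61, and 2 higher and 2 lower without WT-LPS replicate 1, median -0.42.

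Of 34 phagocytosis and complement genes 4 were lower and 1 higher at an unadjusted p under 0.05 (against 5.71% higher and 5.09% lower of all genes), and the list median was -0.48. EdgeR called none past FDR 0.05 and DESeq2 called 2, Itgam and Stab1. Itgam, the CD11b subunit of complement receptor 3, had the largest difference of the list. It was at 65.9, 418 and 269 TPM in WT-LPS and 61.4, 47.5 and 68.4 TPM in CPEB1-KO-LPS (-2.04 ± 0.53, adjusted p = 0.361). WT-LPS replicate 1 lay within the CPEB1-KO-LPS range, and without it the log2 fold change was -2.57 (edgeR adjusted p = 0.0492). CPEB1-KO-LPS replicate 3, where Csf1r was high, was at 68.4 TPM. The part of microglial RNA content in the Itgam values was not tested. Stab1, a scavenger receptor, was at 23.5, 60.8 and 39.4 TPM in WT-LPS and 22.3, 16.5 and 15.3 TPM in CPEB1-KO-LPS, without overlap (-1.18 ± 0.32). Gas6, the ligand of Mertk, was the member with a higher value (0.43 ± 0.18). Trem2, a lipid receptor of microglia on the same list, overlapped, at 49.8, 174 and 144 TPM in WT-LPS and 69.6, 22.6 and 223 TPM in CPEB1-KO-LPS. Of 25 lysosomal genes 2 were lower, Ctsl and the cholesterol transporter gene Npc1 (-0.56 ± 0.23), and 0 higher. Without CPEB1-KO-LPS replicate 3, 22 phagocytosis genes and 11 lysosomal genes were lower, where 1667 of all genes were. The CPEB1-KO-LPS libraries left, replicates 1 and 2, were those low in Csf1r. Without WT-LPS replicate 1, 14 and 7 were lower, where 1668 of all genes were. The WT-LPS libraries left, replicates 2 and 3, were those high in Csf1r.

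Markers of blood monocytes were lower in CPEB1-KO-LPS in 6 of 10 genes and higher in 1, Nr4a1, at an unadjusted p under 0.05 (against 5.71% higher and 5.09% lower of all genes), with a median of -0.92. None passed FDR 0.05 in the 12-library edgeR fit or in DESeq2. In edgeR on the 6 LPS libraries with the replicate number as a block, Plac8 (adjusted p = 0.00631) and Ly6c2 (adjusted p = 0.0108) passed. These numbers were not taken as pairs. Ccr2, the receptor with which monocytes leave the marrow, was at 2.47, 2.30 and 2.74 TPM in WT-LPS and 0.59, 0.32 and 0.80 TPM in CPEB1-KO-LPS (-2.06 ± 0.62). Ly6c2, the surface marker of inflammatory monocytes, was at 56.6, 114 and 201 TPM in WT-LPS and 21.9, 15.6 and 53.3 TPM in CPEB1-KO-LPS (-1.85 ± 0.61). Plac8, a small protein of myeloid cells, was at 98.9, 158 and 216 TPM in WT-LPS and 28.3, 28.4 and 63.9 TPM in CPEB1-KO-LPS (-1.81 ± 0.58). Every CPEB1-KO-LPS value of these 3 genes was below every WT-LPS value, while Ccl7, a ligand of Ccr2, lay above. The direction held without CPEB1-KO-LPS replicate 3 (8 lower, median -1.23), without WT-LPS replicate 1 (7 lower, -1.35) and with the neuron marker level as a covariate (5 lower, -0.74). Among all genes 1667, 1668 and 923 were lower in these settings, in that order. Without LPS the list median was -0.05. Of 10 border macrophage markers 1 was higher, the haemoglobin scavenger receptor Cd163 at 0.45, 1.05 and 0.47 TPM in WT-LPS and 1.67, 1.88 and 2.77 TPM in CPEB1-KO-LPS (1.76 ± 0.50), and 1 was lower, Stab1. T and NK cell markers were near the limit of detection, and of 9 tested 2 were higher and 0 lower, with a median of 0.89. Cd8b1 had 12 counts over WT-LPS and 40 over CPEB1-KO-LPS (1.67 ± 0.58). Cd3g, a chain of the T cell receptor complex, had 2 counts over WT-LPS and 21 over CPEB1-KO-LPS, 9.96 times as many after scaling (95% interval for counting error, 2.43 to 87.6). Klrb1c of the same list lay the other way without overlap, with 48 counts over WT-LPS and 18 over CPEB1-KO-LPS (-1.44 ± 0.69). None of 12 neutrophil and 5 B cell markers had an unadjusted p under 0.05 in edgeR, and DESeq2 called none.

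Endothelial and mural markers were lower in 6 of 16 genes and higher in 0 at an unadjusted p under 0.05 (against 5.71% higher and 5.09% lower of all genes), with a median of -0.82. None passed FDR 0.05 in edgeR, and DESeq2 called 2, Ly6c1 and Cldn5. Cldn5, the main claudin of the blood-brain barrier, was at 37.4, 32.0 and 92.9 TPM in WT-LPS and 21.9, 19.9 and 15.6 TPM in CPEB1-KO-LPS (-1.41 ± 0.34, adjusted p = 0.361). Cdh5, VE-cadherin, was at 7.45, 4.92 and 19.7 TPM in WT-LPS and 2.62, 3.15 and 4.78 TPM in CPEB1-KO-LPS (-1.46 ± 0.45). Flt1, a VEGF receptor, was at 1.90, 1.75 and 9.09 TPM in WT-LPS and 0.91, 1.24 and 1.45 TPM in CPEB1-KO-LPS (-1.68 ± 0.55). WT-LPS replicate 3 held the highest values of these 3 genes, and the WT-LPS values of replicates 1 and 2 were also above those of CPEB1-KO-LPS. The list's summed level was 142 to 338 TPM in WT-LPS and 91.7 to 133 TPM in CPEB1-KO-LPS. Without LPS the list median was -0.01.

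Astrocyte markers followed the same order, 4 of 10 lower and 0 higher at an unadjusted p under 0.05 (against 5.71% higher and 5.09% lower of all genes, for this and the lists that follow), with a median of -0.72. Summed levels were 2123 to 3619 TPM in WT-LPS and 1303 to 1791 TPM in CPEB1-KO-LPS, and no marker passed FDR 0.05 in edgeR or DESeq2. Slc1a2, the glutamate transporter GLT-1, was at 189.8, 219 and 428 TPM in WT-LPS and 58.9, 84.1 and 127 TPM in CPEB1-KO-LPS (-1.51 ± 0.54). Aqp4, the water channel of astrocyte endfeet, was at 43.3, 29.7 and 56.7 TPM in WT-LPS and 12.3, 18.7 and 29.1 TPM in CPEB1-KO-LPS (-0.97 ± 0.45). Choroid plexus and ependyma markers pointed the other way, with 3 of 9 higher and 0 lower. They were Ttr, transthyretin (1.05 ± 0.35), the potassium channel gene Kcnj13 (1.18 ± 0.44) and the folate receptor gene Folr1 (0.69 ± 0.29). Ttr was at 1093, 1639 and 2243 TPM in WT-LPS and 3491, 2482 and 3663 TPM in CPEB1-KO-LPS. Of the choroid plexus markers, 1 was higher and 0 lower without CPEB1-KO-LPS replicate 3, median -0.03, where all genes gave 1402 and 1667. Without WT-LPS replicate 1, 1 was higher and 0 lower, median 0.06, where all genes gave 1250 and 1668. Of 14 neuron markers 1 was lower, Camk2a, a kinase of excitatory synapses (-0.86 ± 0.29), and 0 were higher, with a median of 0.08. Of the neuron markers, 0 were higher and 1 lower without CPEB1-KO-LPS replicate 3, median 0.23, and 3 higher and 1 lower without WT-LPS replicate 1, median 0.57. Erythroid transcripts were higher in 4 of 6 genes with a median of 1.86, and CPEB1-KO-LPS replicate 3 had the highest mean level of the list. The beta-globin gene Hbb-bs was at 2719, 4284 and 3354 TPM in WT-LPS and 2949, 4880.3 and 24553 TPM in CPEB1-KO-LPS. Of the erythroid transcripts, 0 were higher and 0 lower without CPEB1-KO-LPS replicate 3, median 0.05, and 1 higher and 0 lower without WT-LPS replicate 1, median 1.64. With all libraries in the fit, the medians of the astrocyte, choroid plexus and erythroid lists (-0.72, 0.275 and 1.86) lay away from the 0.06 of all genes. That of the neuron markers (0.08) did not. The part of astrocyte, choroid plexus and red blood cell RNA in the differences of other genes was not tested.

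Members of metabolic and housekeeping lists were counted at an unadjusted p under 0.05, against 5.71% higher and 5.09% lower of all genes. The counts for all genes were 1402 higher and 1667 lower without CPEB1-KO-LPS replicate 3, and 1250 and 1668 without WT-LPS replicate 1. None of 37 cytosolic ribosomal protein genes had an unadjusted p under 0.05 in edgeR, DESeq2 called none, and their log2 fold changes ran from -0.11 to 0.33. Of 22 genes of oxidative phosphorylation 1 was higher, Uqcrq, a subunit of complex III, at 849, 791 and 651 TPM in WT-LPS and 990.4, 1050.4 and 937 TPM in CPEB1-KO-LPS (0.48 ± 0.20). Of the oxidative phosphorylation genes, 0 were higher and 0 lower without CPEB1-KO-LPS replicate 3, median 0.14, and 2 higher and 0 lower without WT-LPS replicate 1, median 0.30. Glycolysis and hypoxia genes were lower in 3 of 20: Pfkfb3, which makes the activator of phosphofructokinase (-1.41 ± 0.45), Eno1, enolase, and Slc2a1, the glucose transporter GLUT1 (-0.51 ± 0.21). Eno1 was at 926, 653 and 590.3 TPM in WT-LPS and 449, 361 and 343 TPM in CPEB1-KO-LPS, without overlap (-0.85 ± 0.28), while the list median was -0.06. Reads from processed copies of this gene cannot be told apart from it. Of the glycolysis and hypoxia genes, 0 were higher and 6 lower without CPEB1-KO-LPS replicate 3, median -0.05, and 0 higher and 6 lower without WT-LPS replicate 1, median 0.01. Glucocorticoid response genes and metallothioneins were lower in 3 of 14 with a median of -0.39 at this threshold. They were Zbtb16, a zinc finger factor (-1.07 ± 0.29), Cdkn1a, the cell cycle inhibitor p21, and Tsc22d3, the glucocorticoid-induced leucine zipper (-0.67 ± 0.29). Of 20 cell cycle genes Cdkn1a was lower at this threshold with all libraries in the fit. Of the cell cycle genes, 0 were higher and 5 lower without CPEB1-KO-LPS replicate 3, median -0.58, and 0 higher and 5 lower without WT-LPS replicate 1, median -0.53. Cdkn1a was even within groups, at 315, 323 and 393 TPM in WT-LPS and 199, 200.4 and 208 TPM in CPEB1-KO-LPS (-0.68 ± 0.20, adjusted p = 0.379). Of 14 heat shock genes 1 was lower, Hspa1a (-1.17 ± 0.50). Of the heat shock genes, 0 were higher and 0 lower without CPEB1-KO-LPS replicate 3, median -0.09, and 0 higher and 2 lower without WT-LPS replicate 1, median 0.12.

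No gene of the machinery with which CPEB1 works passed the threshold. Of 32 genes of cytoplasmic polyadenylation and deadenylation 4 were lower and 0 higher at an unadjusted p under 0.05, none past FDR 0.05 in edgeR or DESeq2, with a median of -0.16 (against 5.71% higher and 5.09% lower of all genes). Of these genes, 1 was higher and 9 lower without CPEB1-KO-LPS replicate 3, median -0.17, where all genes gave 1402 and 1667. Without WT-LPS replicate 1, 1 was higher and 6 lower, median -0.26, where all genes gave 1250 and 1668. Papd4, the cytoplasmic poly(A) polymerase GLD2 that CPEB1 recruits, was at 21.9, 34.3 and 40.6 TPM in WT-LPS and 19.2, 18.5 and 22.4 TPM in CPEB1-KO-LPS (-0.60 ± 0.26). The other 3 were Zfp36l1 (-1.17 ± 0.43) and Zfp36l2 (-1.23 ± 0.48), which bind AU-rich elements and recruit deadenylases, and Btg2, an activator of deadenylation (-1.18 ± 0.54). Zfp36l2 was at 50.9, 183 and 228 TPM in WT-LPS and 45.6, 45.5 and 90.1 TPM in CPEB1-KO-LPS, where WT-LPS replicate 1 lay among the CPEB1-KO-LPS values. Of 20 genes of nuclear cleavage and polyadenylation 1 was lower, Pcf11, a termination factor (-0.48 ± 0.21), and 0 higher, with a median of -0.08. Of the nuclear genes, 2 were higher and 0 lower without CPEB1-KO-LPS replicate 3, median 0.01, and 0 higher and 3 lower without WT-LPS replicate 1, median -0.16.

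**Figure D5:**
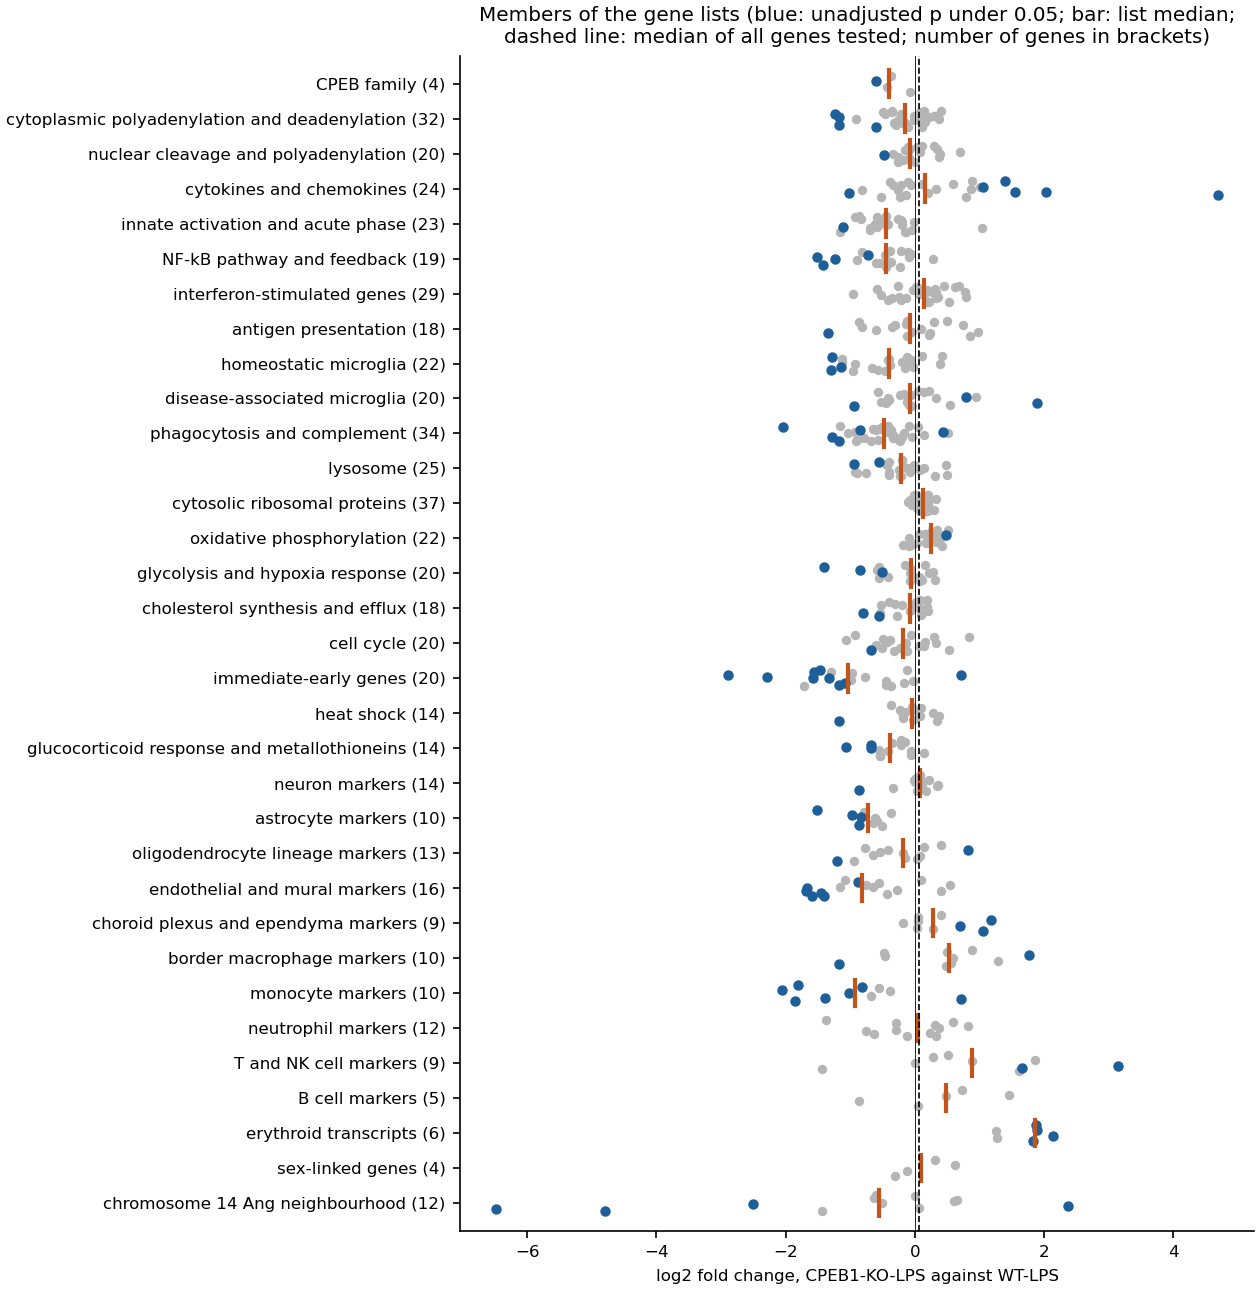
Log2 fold change of CPEB1-KO-LPS against WT-LPS for the members of 33 gene lists (1 point a gene, blue where the unadjusted p was under 0.05), with the list median as an orange bar and the median of all genes tested, 0.06, as a dashed line. Immediate-early, monocyte, endothelial and astrocyte lists lie to the left with medians of -1.04, -0.92, -0.82 and -0.72, and erythroid transcripts to the right with 1.86.

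Genes that carry a CPE were set against the rest of the transcripts. A 3′ UTR of at least 100 bases was found in GENCODE M21 for 13798 of the genes tested, and 2622 of them (19.0%) held a CPE in its last 100 bases. Their median log2 fold change was 0.01, against 0.06 for the 11176 genes without one. Of those with one, 6.06% were lower and 4.996% higher at an unadjusted p under 0.05, against 5.07% and 5.34%. With a CPE anywhere in the 3′ UTR (8413 genes, 61.0%) the median was -0.01, against 0.15 for the 5385 genes with none, and 6.72% were lower against 2.99%. The genes with a CPE anywhere had a median 3′ UTR of 1643 bases and those with none 499 bases. With the genes in 3 classes of equal size by 3′ UTR length, the median was 0.18 in the shortest class (up to 627 bases) and -0.08 in the longest (over 1668 bases). Within the shortest class the medians were 0.16 with and 0.18 without a CPE in the last 100 bases. They were 0.04 and 0.07 in the middle class, and -0.12 and -0.08 in the longest. With a CPE anywhere and with none, the medians were 0.13 and 0.20 in the shortest class, 0.05 and 0.10 in the middle class and -0.09 and -0.03 in the longest.

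Each library was also set against the mean of the 6 to see how genes with short and long 3′ UTRs stood in it. The median deviation of short minus long genes was -0.16, -0.04 and -0.18 (log2 CPM) in WT-LPS replicates 1, 2 and 3 and 0.20, 0.02 and 0.17 in CPEB1-KO-LPS replicates 1, 2 and 3, so that the sign was the same within each group and replicate 2 of both groups lay near 0. Without CPEB1-KO-LPS replicate 3 the medians of the shortest and longest classes were 0.17 and -0.07, without WT-LPS replicate 1 0.12 and -0.12, and with the neuron marker level as a covariate 0.20 and -0.08. Without LPS the order was the reverse: within the genes that lack a CPE in the last 100 bases the median of CPEB1-KO against WT was -0.18 in the shortest and 0.14 in the longest class.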

How the data were processed

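RNA of microglia from 12 mice, 3 for each combination of genotype and LPS, was sequenced. The authors deposited 1 table of expected counts and 1 of TPM per gene and library; per the submitters' processing notes cutadapt, RSEM and the mouse build mm10 were used. The sources used here give neither the versions of these tools nor the use of strand in counting, so antisense and overlapping genes may share reads. TPM is relative to the other RNA of a library and was used for levels only. Of 23845 genes 23802 were matched to RefSeq GRCm38.p6, and 27 names that had turned into dates were restored.

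Deposited expected counts, after rounding to whole numbers, were tested with edgeR 4.0.16 (R 4.3.3): genes were filtered by filterByExpr, libraries scaled by TMM, and all 4 groups fitted with the quasi-likelihood test (8 residual degrees of freedom), with Benjamini-Hochberg adjustment over 15295 genes and a threshold of 0.05. A fold change is CPEB1-KO-LPS against WT-LPS in log2, and its SE was derived from the test statistic. Each library is 1 animal. The text names the CPEB family, the gene past the threshold, in each direction up to 10 genes of smallest p with a mean of at least 5 TPM and groups that do not overlap, up to 4 genes of each of 33 lists by p, the genes within 1 Mb of Cpeb1 and 11 known response and microglia genes. Serpina1b, Gpx6, Gm13157, Pnp2, Cxcl3, C4b, Gm5512, Csf1r, Cxcl1, Gh and Prl among others were named after their values were seen. Of 584 list entries 8 were absent from the tables. The comparison, the genes and the lists were chosen with earlier results of these data known.

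Alternatives were RLE scaling, DESeq2 1.42.0, other filters, only the 6 LPS libraries, limma 3.58.1 on log2(TPM + 1) and log2(TPM + 0.1), a neuron marker covariate, a test against 1.5-fold, a replicate block and leaving out each library. Overlap of groups was also counted in TMM-scaled CPM; without LPS this, the lists without a library and the split by 3′ UTR length were added after the data were seen. Scripts were tested on simulated counts. The 3′ UTRs came from GENCODE M21, 1 transcript a gene, the one with the longest coding sequence.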

Additional observations from a re-analysis of the deposited data

Results flagged for a closer look

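The genotype difference of the transcribed pseudogene Gm5512 itself differed between the LPS and no-LPS states: the log2 fold change after LPS exceeded that without LPS by 7.156 ± 0.938 (edgeR adjusted p = 0.0479). All 3 WT libraries without LPS were high, at 19.9, 12.6 and 50.1 TPM, and the 9 libraries of the other groups lay between 0.11 and 1.93 TPM. No difference between states passed under RLE scaling or with the neuron marker level as a covariate.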

How the results depend on the processing

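Gm13304 passed under every alternative run. The number of genes past FDR 0.05 after LPS was 1 under RLE scaling, at least 1 CPM in 3 libraries, the 6 LPS libraries only, limma on log2(TPM + 0.1) and the test against 1.5-fold. It was 90 with DESeq2 (30 higher, 60 lower), 3 with no filter on low counts, 7 with the neuron marker covariate, 5 with limma on log2(TPM + 1) and 1 to 11 when a library was left out. Genes whose groups did not overlap after LPS numbered 1908 in TPM (570 higher, 1338 lower) and 2174 in TMM-scaled CPM (1299 higher, 875 lower). The replicate block gave 71 genes (11 higher, 60 lower), 31 of them also called by DESeq2. Same-numbered WT-LPS and CPEB1-KO-LPS libraries correlated at 0.22, -0.31 and 0.20 in their deviations, and WT-LPS replicate 1 correlated best with CPEB1-KO-LPS replicate 2 (0.35), so the numbers were not taken as pairs. Without LPS the count of 5 became 519 with DESeq2, 11 with no filter, 10 with the covariate and 2 to 1292 when a library was left out, the last without WT replicate 1. The count for the difference between states, 1, became 0 under RLE scaling and with the covariate (2365 genes had an unadjusted p under 0.05 in the fit as reported), 301 with DESeq2 and 0 to 441 when a library was left out, the last without WT replicate 1. The cause of these shifts was not tested. Of 1698 values of named genes under an alternative, 1615 kept direction and side of the threshold, 61 newly passed and 22 changed sign. Signs changed for Tmem119 (0.092, neuron marker level as a covariate), Cx3cr1 (-0.045, limma on log2(TPM + 1)), Cx3cr1 (-0.047, limma on log2(TPM + 0.1)), Cx3cr1 (-0.065, replicate block), Trem2 (0.056, neuron marker level as a covariate). When a library was left out, log2 fold changes ran across 0 for these genes: Cpeb1 -0.25 to 0.06, Isg15 -0.11 to 1.03, Tnf -1.83 to 0.26, Ccl2 -0.069 to 0.84, P2ry12 -1.95 to 0.13, Tmem119 -0.88 to 0.61, Cx3cr1 -0.76 to 0.83, Trem2 -1.49 to 0.42, Snap25 -0.11 to 0.87. With 3 animals a group, small differences were not detectable at this spread.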

Other observations

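The most negative fitted log2 fold changes of the comparison belonged to Gh, growth hormone, and Prl, prolactin, which the pituitary secretes. Gh stood at 0.62, 12.5 and 3158 TPM in WT-LPS replicates 1, 2 and 3 and at 1.00, 0 and 0 TPM in CPEB1-KO-LPS replicates 1, 2 and 3, with a log2 fold change of -11.34 ± 3.99 that did not pass (edgeR adjusted p = 0.422). Prl was at 0, 2.15 and 490.0 TPM in WT-LPS and 0.41, 0 and 0 TPM in CPEB1-KO-LPS, or 2018 counts against 2 (1060 times higher in WT-LPS after scaling by depth, 95% interval for counting error 294 to 8790). Both were high in 1 WT-LPS library only, replicate 3. Without LPS the high library was CPEB1-KO replicate 2, where Gh stood at 4952 and Prl at 1249 TPM.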
